A study of Mus musculus with 3 samples.

Results

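Glutamate and GABA receptor genes were examined across the cell classes of mouse brain tissue profiled by single-cell RNA sequencing. The members were all genes whose symbol names an AMPA, kainate, NMDA or metabotropic glutamate receptor subunit, or a GABA-A or GABA-B receptor subunit, which gave 46 of the 31053 genes of the count table. Of these, 45 belong to a receptor family and the other is Grin1os, an antisense transcript of Grin1. The study compared 10-week-old mice of the strain labelled C56BL6 (C57BL/6 in the study's methods) in 3 groups, control, Ischemic Stroke (IS) and Hemorrhagic Stroke (HS), and sought to describe the glial response to each kind of stroke. Ischemic stroke was made with a suture in the middle cerebral artery, and hemorrhagic stroke with collagenase injected into the striatum. Each group was deposited as 1 sample, for which the study lists several mice. The 3 libraries stand in a single table and are marked by a barcode suffix that no source used here ties to a group, so values are given for libraries 1, 2 and 3 by suffix and no group was compared with another.

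Glutamate opens AMPA, kainate and NMDA receptors, which are cation channels built from 4 subunits, and also acts on metabotropic receptors that signal through G proteins. GABA opens the GABA-A receptor, a chloride channel usually made of alpha, beta and gamma subunits, and acts through G proteins at the GABA-B receptor, an obligate pair of the subunits encoded by Gabbr1 and Gabbr2. These receptors are best known at neuronal synapses, but oligodendrocyte precursors receive synapses from neurons, astrocytes respond to both transmitters, and GABA acts on the young neurons that leave the adult neurogenic zones.

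After barcodes with under 1000 unique molecular identifiers (UMIs) or over 30% mitochondrial UMIs were left out, 31982 of 35968 barcodes remained, with medians of 6389, 5801 and 6287.5 UMIs in libraries 1, 2 and 3. A barcode entered a class when it held UMIs of at least 3 of that class's gate genes, so each class name below stands for cells like that type by marker RNA. The gates placed 27918 barcodes, and 15 classes had 50 cells or more. They included 359 oligodendrocyte precursors, 93 committed precursors, 9577 oligodendrocytes, 294 astrocytes, 1599 neuroblasts, 322 dividing progenitors and 83 neurons. The committed precursors lie between precursor and oligodendrocyte, and 60.2% of them also passed the precursor gate. Neurons were few, 61 of the 83 came from library 1, and 87.95% of them passed their gate with exactly 3 genes. The genes that set them apart from other cells were led by Avp, the vasopressin gene, and Scg2. In each of these 7 classes all 6 or 7 check markers stood above the level in the other cells. Between libraries, 43, 24 and 43 barcode sequences were shared in the pairs 1 and 2, 1 and 3, and 2 and 3.

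Levels are CPM, a gene's UMIs summed over the cells of a class and scaled by all UMIs of that class, with 95% Poisson intervals that cover counting error only. A UMI marks the 3' end of 1 transcript, so levels need no division by gene length, but capture is not calibrated between genes. A receptor gene was called in a class when at least 5% of the cells held a UMI and its CPM was at least 4 times that of the 2302 T cells, in which genes under 3 UMIs were set at 3 UMIs. T cells were taken as the background for free RNA, and their median depth was 4748 UMIs. Libraries 1, 2 and 3 held 864, 1414 and 24 of them, so this background holds little RNA of library 3. With 1 sample per group there is no test and no p-value, and a call describes these libraries. Calls, and statements of the highest or next level, cover the 15 classes of 50 cells or more, and not the pituitary, ependymal and fibroblast classes of 17, 32 and 26 cells. Of the 46 members, 40 had at least 10 UMIs in all; Gabrp, Gabra6 and Gabrr3 had 0, Grin1os had 3, Grm6 had 4 and Gabrr1 had 7, and none of the 6 was tested further.

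At full depth more members were called in neurons and oligodendrocyte precursors than in other classes. With each cell thinned to 1000 UMIs the order turned, with 9 members called in astrocytes, 8 in precursors and 6 in neurons. Of all genes, 1149, 1464 and 1331 were called in these thinned classes, in the same order. In neurons at full depth 29 of the 46 members were called, where 20.7% of all 18648 tested genes were called. In oligodendrocyte precursors 24 members were called against 20.6% of all tested genes, and in committed precursors 14 members against 17.6%. Astrocytes had 14 called members, beside 14.6% of all tested genes. Dividing progenitors had 11, beside 15.2%, neuroblasts had 9, beside 12.2%, and oligodendrocytes had 7, beside 11.7%. No member was called in microglia, where 6.46% of all tested genes were called, in macrophages/monocytes with 6.53%, in NK cells with 0.660%, in neutrophils with 4.62% or in endothelial cells with 12%. Mural cells had 2 called members, beside 11.4%, and choroid plexus cells had 4, beside 11.8%. The median level of the 40 tested members was 14.6 CPM in neurons and 11.8 CPM in precursors, where the median of all tested genes was 7.95 and 11.1 CPM. In astrocytes the members' median was 0.823 CPM against 9.06 CPM for all tested genes, since 15 of the 40 members had no UMI there while Gria2, Gabrb1, Grin2c, Gabbr1, Gabrg1 and Grm3 stood above 100 CPM.

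**Figure D1:**
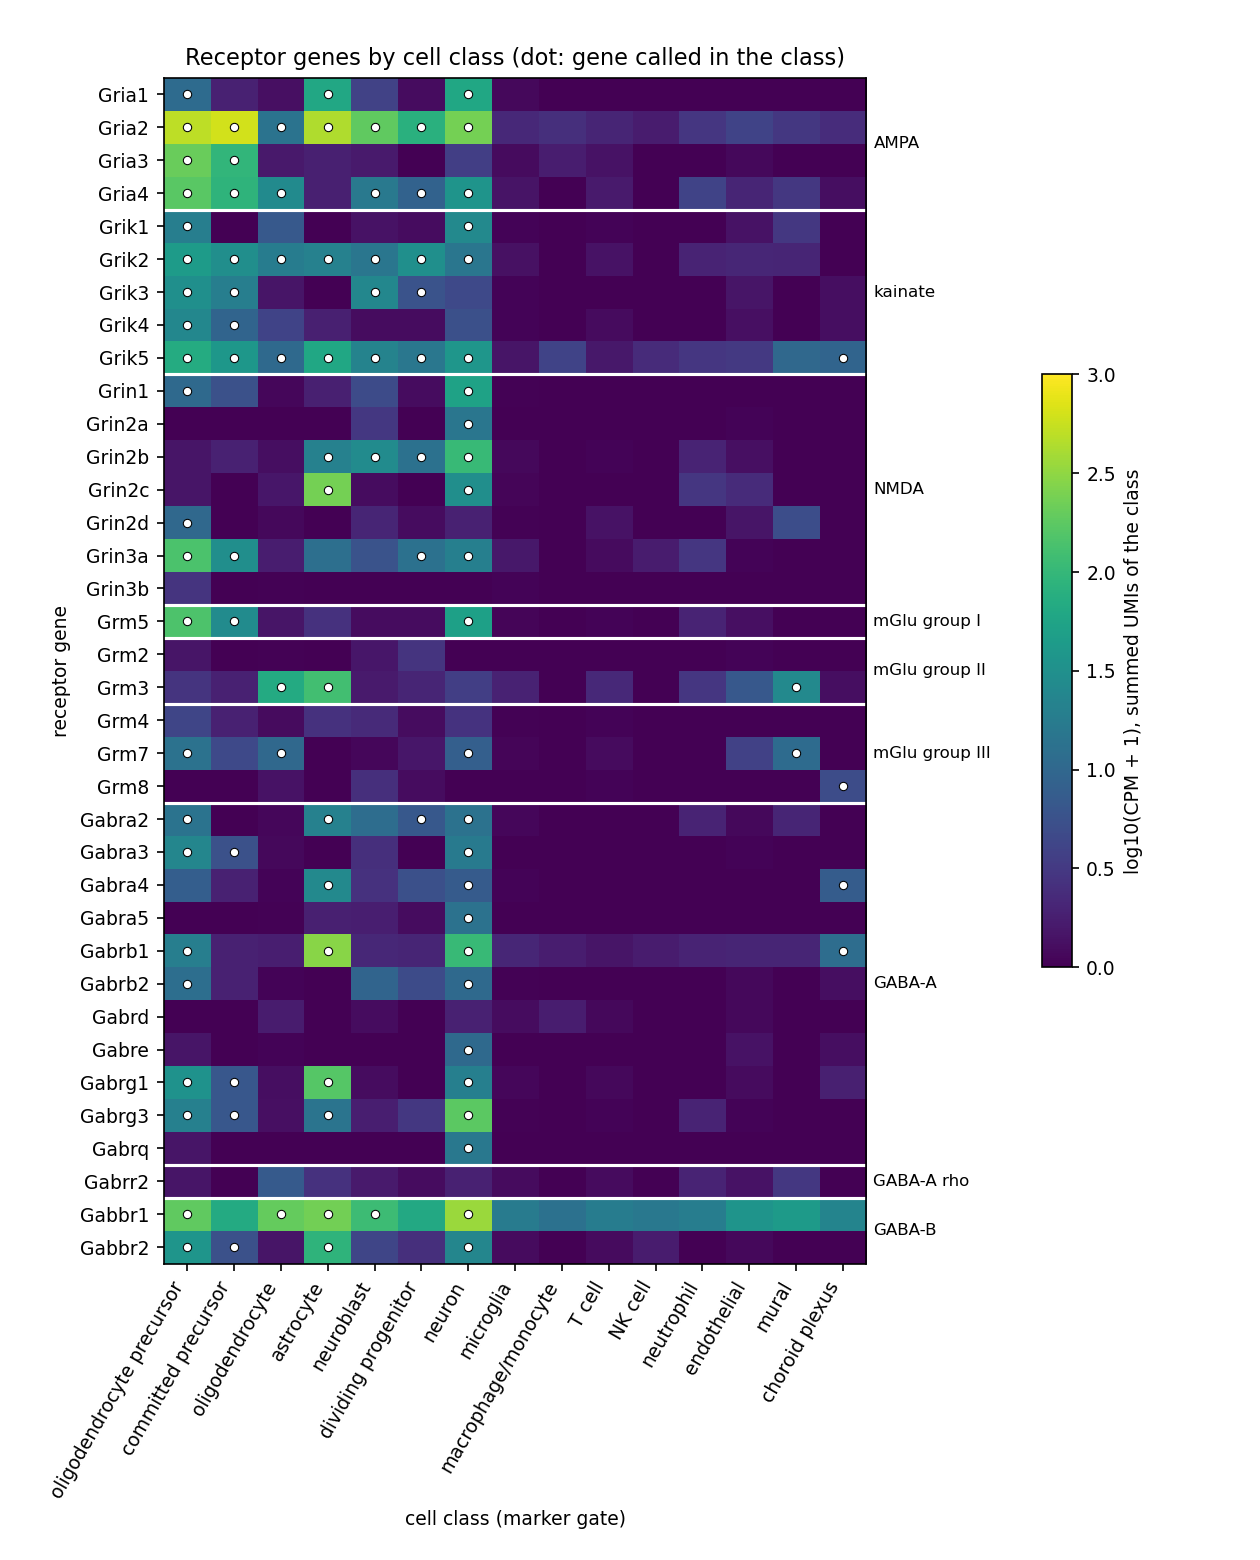
Each row is a receptor gene with at least 10 UMIs, each column a cell class with at least 50 cells, and color gives log10(CPM + 1) of the class; a dot marks a called gene, and members not reported by name are left out. Dots fill most rows of the oligodendrocyte precursor and neuron columns, where 24 and 29 of all members were called, and none stands in the columns from microglia to endothelial cells. The T cell column among these can hold no dot, since T cells are the reference of the call.

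Within a cell, neurons held UMIs of a median of 10 receptor genes, precursors of 6, committed precursors and astrocytes of 4, neuroblasts and dividing progenitors of 2 and oligodendrocytes of 1. Depth differed between the classes, from a median of 3058 UMIs in astrocytes to 11881 in neurons. Thinned to 1000 UMIs per cell, the mean was 1.69 receptor genes in astrocytes, 1.63 in precursors, 1.29 in neurons, 0.935 in committed precursors, 0.538 in neuroblasts, 0.340 in oligodendrocytes and 0.0261 in T cells. At equal depth astrocytes and precursors thus stood close together and above neurons. All receptor genes together made up 1840.3 CPM in precursors, 1815 CPM in astrocytes, 1613 CPM in neurons and 24.8 CPM in T cells.

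**Figure D2:**
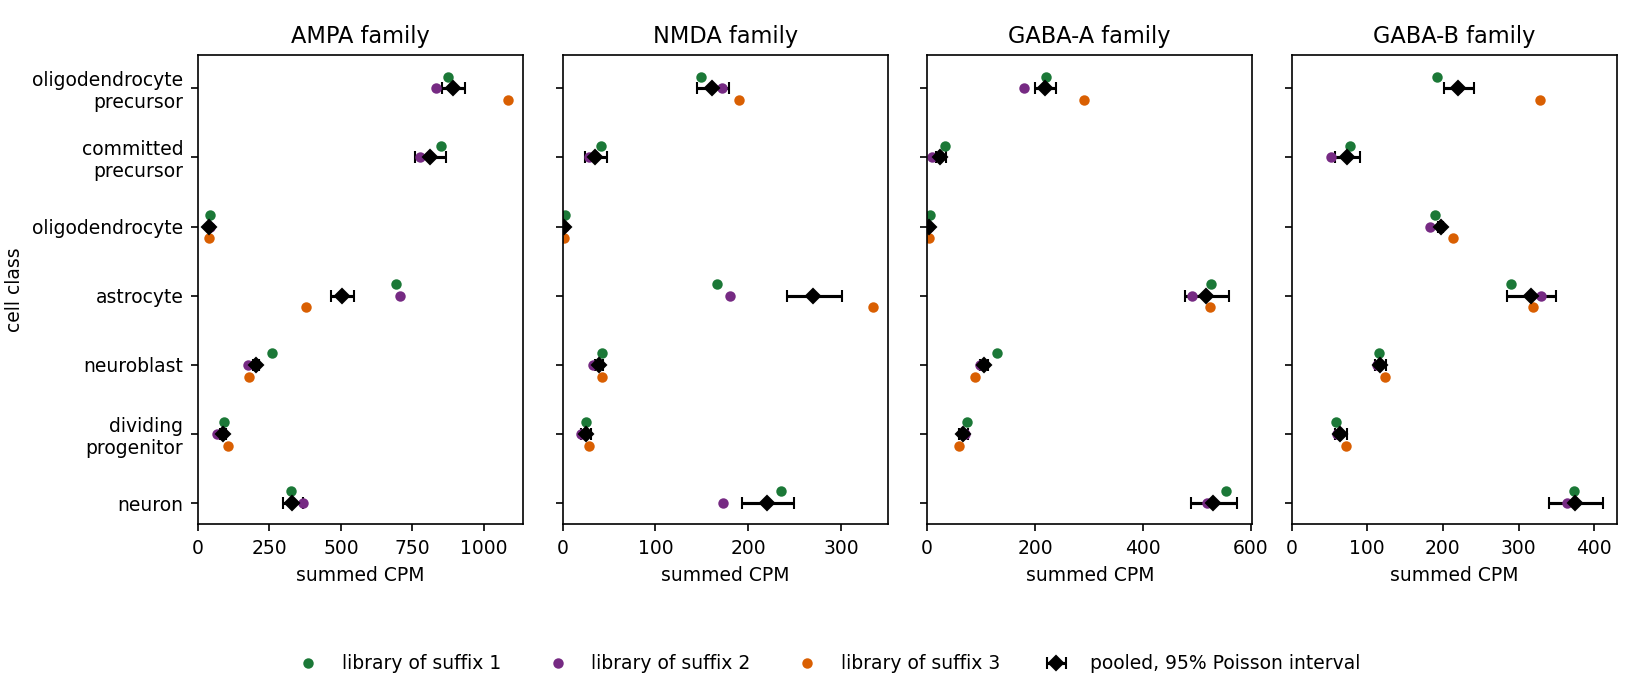
Summed levels in CPM (x axis) of the AMPA, NMDA, GABA-A and GABA-B genes in 7 cell classes (y axis), with black diamonds for the pooled cells and their 95% Poisson intervals and colored points for each library with at least 10 cells of the class. AMPA genes are highest in the oligodendrocyte precursor at 891 CPM, with an interval that overlaps that of the committed precursor at 812 CPM. GABA-A genes are highest in neurons and astrocytes, at 530.2 and 517 CPM.

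The AMPA receptor genes were Gria1 to Gria4, and Gria2, whose edited subunit makes the channel impermeable to calcium, led in each of the 7 neural classes but the oligodendrocyte. In oligodendrocyte precursors Gria2 stood at 492, 455 and 683 CPM in libraries 1, 2 and 3, Gria3 at 207, 189.5 and 222 CPM, and Gria4 at 168, 173 and 164 CPM. These genes were thus high in all 3 libraries, with Gria2 highest in library 3. Pooled, the precursors held 508 CPM of Gria2 (interval 479 to 539), 204 of Gria3 and 169 of Gria4, while Gria1 reached 10.2 CPM. Gria2 had a UMI in 87.2% of precursors (40.7% after thinning), against 0.434% of T cells (0.0869% after thinning).

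In committed precursors Gria2 was higher still, at 630.4 CPM (584 to 679), and the intervals of the 2 stages did not overlap. Gria2 stood at 654 and 619.5 CPM in libraries 1 and 2, and library 3 held 8 such cells, too few for a value. Gria3 and Gria4 stood lower in the committed stage, at 93.6 and 87.2 CPM, again with no overlap of intervals. The share of Gria2 among all AMPA UMIs was therefore 57.0% in precursors and 77.6% in committed precursors. In oligodendrocytes the AMPA sum was 40.02 CPM and the order turned: Gria4 stood at 27.1, 27.9 and 24.3 CPM and Gria2 at 15.02, 11.6 and 12.4 CPM in libraries 1, 2 and 3. Gria4 made up 65.5% of their 2597 AMPA UMIs (63.7 to 67.4%), against 18.9% in precursors. No library departed from that order.

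Neuroblasts and dividing progenitors had AMPA sets of a simpler kind. Gria2 made up 90.7% of AMPA UMIs in neuroblasts and 90.9% in dividing progenitors, at 184 and 79.8 CPM. In neuroblasts it stood at 232, 157 and 163 CPM in the 3 libraries. Gria4 was the other called gene in both, at 15.3 and 7.69 CPM, and Gria3 had 5 UMIs in 1599 neuroblasts and none in 322 dividing progenitors. Neurons held 232 CPM of Gria2, 61.0 of Gria1, 34.5 of Gria4 and 2.65 of Gria3. Astrocytes held 441 CPM of Gria2 (405 to 480) and 61.7 of Gria1, with 1 UMI each of Gria3 and Gria4 in 294 cells.

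Among the classes of 50 cells or more, Gria3 was called in the 2 precursor stages alone, and its next level was 2.65 CPM in neurons. The 26 fibroblasts held 3 UMIs of it, a level of 20.6 CPM. UMIs of Gria2, Gria3 and Gria4 occurred together in 32.9% of precursors (28.03 to 37.99%) and 27.96% of committed precursors. They occurred together in 2 of 83 neurons, in 0 of 1599 neuroblasts and in 0 of 294 astrocytes. Gria2 alone was found in 50.3% of astrocytes and 42.5% of neuroblasts, against 16.7% of precursors. A non-Gria2 AMPA gene without Gria2 was found in 9.47% of precursors, 6.80% of astrocytes and 4.19% of neuroblasts; in cells of this depth a missing UMI does not show a missing transcript.

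**Figure D3:**
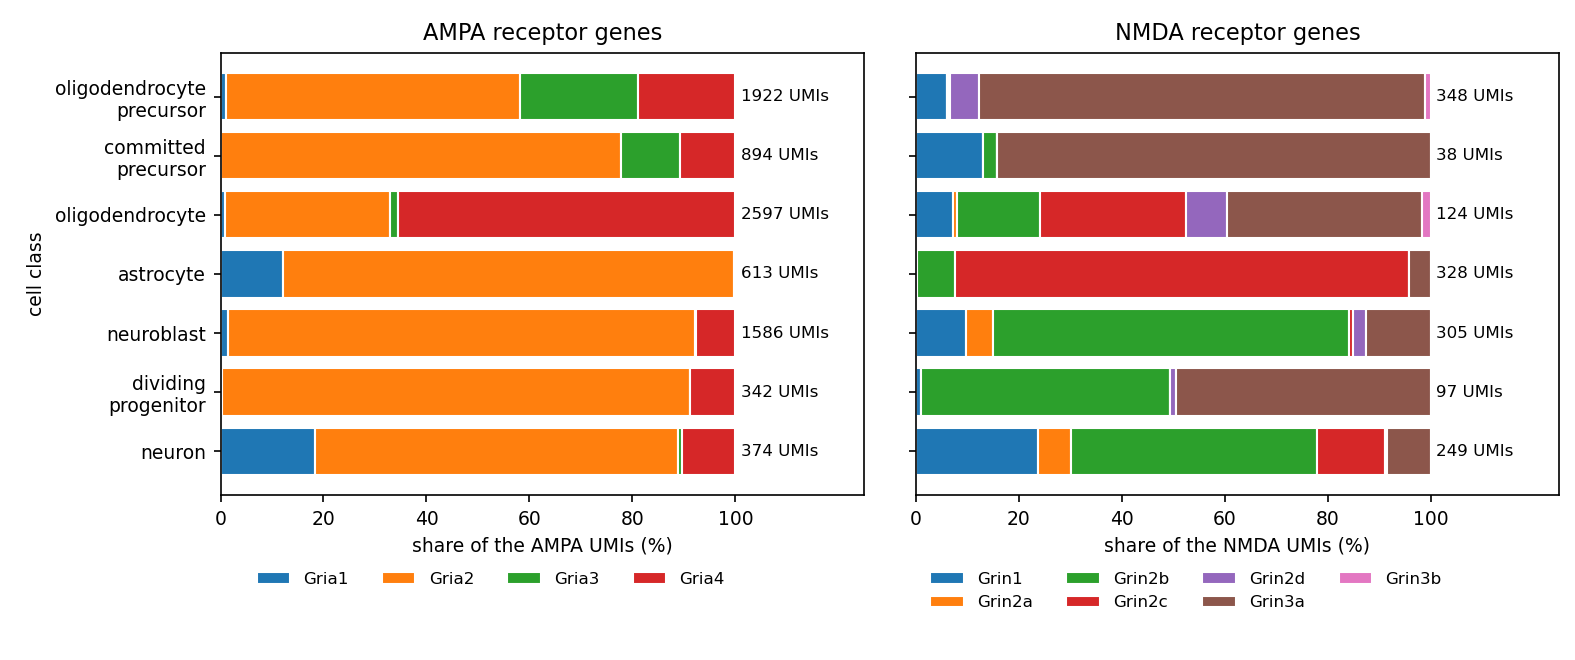
Shares in percent (x axis) of each subunit gene among the AMPA UMIs (left) and the NMDA UMIs (right) of 7 cell classes (y axis), with the number of UMIs behind each bar. Gria2 takes 57.0 to 90.9% of AMPA UMIs in all classes but the oligodendrocyte, and the leading NMDA gene is Grin3a in precursors, Grin2c in astrocytes and Grin2b in neuroblasts and neurons.

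Kainate receptor genes were Grik1 to Grik5, of which Grik4 and Grik5 encode high-affinity subunits that need a partner. All 5 were called in oligodendrocyte precursors, at 69.6 CPM for Grik5, 43.6 for Grik2, 30.1 for Grik3, 23.2 for Grik4 and 18.1 for Grik1, and they summed to 185 CPM. Of all tested genes 20.6% were called in precursors. The kainate sums in libraries 1, 2 and 3 were 181, 171 and 226 CPM. In committed precursors Grik5, Grik2, Grik3 and Grik4 were called, at 37.2, 29.1, 18.2 and 8.17 CPM. Grik2 and Grik5 were called in all 7 neural classes. Grik3 had the highest kainate level of neuroblasts, at 23.3 CPM, with 22.7, 22.7 and 24.3 CPM in the 3 libraries, and its interval overlapped that of Grik5 at 20.8 CPM. Grik2 led in dividing progenitors at 30.3 CPM (25.05 to 36.2) and stood at 14.1 CPM (11.6 to 16.95) in neuroblasts. In astrocytes Grik5 stood at 60.1 CPM and Grik2 at 19.8 CPM.

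NMDA receptors need the Grin1 subunit, which Grin2 or Grin3 subunits join. Grin1 was highest in neurons, at 52.1 CPM (39.7 to 67.2), with 58.8 and 36.8 CPM in libraries 1 and 2. It stood at 9.74 CPM in precursors, 3.84 CPM in neuroblasts and 0.139 CPM in oligodendrocytes, and in astrocytes it had 1 UMI. The neuron intervals did not overlap those of any of these classes. In precursors Grin1 was called on 21 UMIs. That call was lost without library 1, with neutrophils as reference and under other alternatives. Grin1 overlaps Grin1os on the other strand, and no source read here states whether strand was used in counting.

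The partner subunits were divided between the cell classes. Grin3a, whose subunit lowers calcium entry through the channel, stood at 134, 141 and 158 CPM in the precursors of libraries 1, 2 and 3 and made up 86.5% of their NMDA UMIs (82.4 to 89.9%). It was 29.1 CPM in committed precursors, 12.3 in dividing progenitors and 0.724 in oligodendrocytes. In neurons it stood at 18.6 CPM on 21 UMIs in 6 of 83 cells, of which 9 UMIs came from the 1 neuron of library 3, and without that cell it stood at 11.4 CPM (5.89 to 19.9). Grin2d stood at 9.28 CPM in precursors on 20 UMIs, with 5.04, 10.7 and 22.6 CPM in libraries 1, 2 and 3, and its call was lost without library 3.

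Grin2c stood at 120, 139 and 309 CPM in the astrocytes of libraries 1, 2 and 3, with the highest level in library 3. Pooled, it was 238 CPM (211 to 267), 88.1% of astrocyte NMDA UMIs, and its next level was 29.2 CPM in neurons. Grin2b, a subunit prominent in young neurons, stood at 105 CPM in neurons, 27.0 in neuroblasts, 19.8 in astrocytes and 12.1 in dividing progenitors. Among the classes of 50 cells or more, Grin2a was called in neurons alone, at 14.1 CPM, and had 16 UMIs in 1599 neuroblasts. Neurons thus had 5 called NMDA genes, beside 20.7% of all tested genes. The 2 astrocyte NMDA genes, beside 14.6%, came without a called Grin1. With cells thinned to 1000 UMIs the neuron call of Grin1 was lost too, while Grin2b stayed called in neurons.

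Among the metabotropic glutamate receptors, those of group I raise calcium in the cell, and Grm5 stood at 142, 141 and 164 CPM in the precursors of the 3 libraries. Pooled it was 145 CPM (129 to 162) in precursors, 50.4 in neurons and 27.2 in committed precursors, and it had 1.65 CPM on 2 UMIs in astrocytes.

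Group II and III receptors lower cyclic AMP. Grm3 of group II stood at 59.95, 116 and 142 CPM in astrocytes and at 56.7, 73.8 and 68.1 CPM in oligodendrocytes of libraries 1, 2 and 3. The pooled values were 122 CPM (103 to 143) and 67.0 CPM (65.1 to 69.1). In the stages before the oligodendrocyte Grm3 was near the background, at 1.86 CPM in precursors and 0.908 CPM in committed precursors, beside 1.19 CPM in T cells. Grm2 reached 21 UMIs in all cells and was called nowhere. Of group III, Grm7 was called in precursors at 12.5 CPM, in oligodendrocytes at 9.31 CPM and in neurons at 7.07 CPM on 8 UMIs. With a UMI needed in 10% of the cells, Grm7 was called in none of these classes. Without library 1 its call was lost in oligodendrocytes. Grm4 had 47 UMIs and was not called, and Grm8 was called in choroid plexus cells at 3.93 CPM.

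GABA-A genes differed in which alpha, beta and gamma subunits each class held. Neurons had 13 of the 16 genes called, where 20.7% of all tested genes were called. Among the 13 were Gabrg3 at 173 CPM and Gabrb1 at 103 CPM. In libraries 1 and 2 Gabrg3 stood at 175 and 209.9 CPM and Gabrb1 at 111 and 81.0 CPM. Gabra5, Gabre and Gabrq were called in no other class of 50 cells or more, at 12.4, 9.72 and 15.02 CPM on 14, 11 and 17 UMIs. With cells thinned to 1000 UMIs these calls were lost in neurons, while those of Gabrg3 and Gabrb1 stayed. The 32 ependymal cells, too few for a call, held 13.9 CPM of Gabra5 on 4 UMIs and 10.45 CPM of Gabre on 3 UMIs. The alpha genes Gabra2, Gabra3, Gabra4 and Gabra5 lay between 6.19 and 15.9 CPM in neurons, all below Gabrb1 and Gabrg3. Of the 83 neurons, 73 held at least 2 UMIs of the GABA genes Gad1, Gad2 and Slc32a1 and none of the vesicular glutamate transporter genes.

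Astrocytes held 517 CPM of GABA-A genes, with sums of 526, 491 and 524 CPM in the 3 libraries. Gabrb1 stood at 290.5, 274 and 293 CPM and Gabrg1, an uncommon gamma subunit, at 152, 150.1 and 169.6 CPM. Both varied little between libraries for the class as a whole, but not within its parts, as given below. Gabra4 and Gabra2 were the called alpha genes, at 24.7 and 19.8 CPM. With cells thinned to 1000 UMIs both alpha calls were lost, while those of Gabrb1 and Gabrg1 stayed. In neuroblasts Gabra2 stood at 10.9 CPM with a UMI in 4.88% of the cells, just under the 5% limit, and it was called when library 2 or library 3 was left out. Neuroblasts had 2 called GABA-A genes, beside 12.2% of all tested genes. Their family sums were 129, 97.6 and 89.1 CPM in the 3 libraries. Dividing progenitors had 3 called genes, beside 15.2%, and a sum of 66.4 CPM, with Gabra2 at 5.64 CPM, a call lost without library 3.

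Oligodendrocyte precursors had 8 called GABA-A genes, beside 20.6% of all tested genes, and summed to 218 CPM (199 to 239). Among the 8 were Gabrg1 at 32.5 CPM, Gabra3 at 22.7 and Gabrg3 at 19.01 CPM. With cells thinned to 1000 UMIs the calls of Gabrg1, Gabra3 and Gabrg3 were lost in precursors. Committed precursors summed to 24.5 CPM (16.2 to 35.7) and oligodendrocytes to 3.73 CPM. They had 4 and 0 called genes, beside 17.6% and 11.7% of all tested genes. The values for single genes of the committed stage rest on 5 or 6 UMIs each, and without library 1 the sum of that stage was 11.2 CPM. Gabra2 in precursors stood at 6.71 and 6.11 CPM in libraries 1 and 2 but at 51.6 CPM in library 3, and Gabrb1 at 15.1, 13.8 and 38.7 CPM. Without library 3 Gabra2 stood at 6.50 CPM in precursors and was not called, and without library 1 at 20.7 CPM. The rho subunit gene Gabrr2 was highest in oligodendrocytes, at 4.79, 6.21 and 6.90 CPM, but its UMIs were in 3.81% of the cells and it was not called. Gabrd, the delta subunit of extrasynaptic receptors, had 87 UMIs in all and was called nowhere.

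Most GABA-A genes lie in clusters, and the genes named here from the chromosome 5 and 7 clusters differed in the class with the highest levels. Gabrg1, Gabra2, Gabra4 and Gabrb1 lie within 1398 kb of chromosome 5 (GRCm38, the build of mm10, positions from the GENCODE vM21 annotation). All 4 were highest in astrocytes, although the interval of Gabra2 overlapped those of other classes, among them precursors and neurons. Among the classes of 50 cells or more, Gabrg3 and Gabra5 of the chromosome 7 cluster were highest in neurons, and no interval of another such class overlapped theirs. Gabrb2 on chromosome 11 was highest in precursors at 11.1 CPM, with overlap to neurons at 9.72 CPM, and neuroblasts stood close at 8.18 CPM. On chromosome X, among the same classes, Gabre and Gabrq were highest in neurons and Gabra3 in precursors, again with overlap to neurons. Gabra4 and Gabrb1 run on opposite strands and their annotated starts overlap. The order of Gabrb1 over Gabra4 held in each library of astrocytes.

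**Figure D4:**
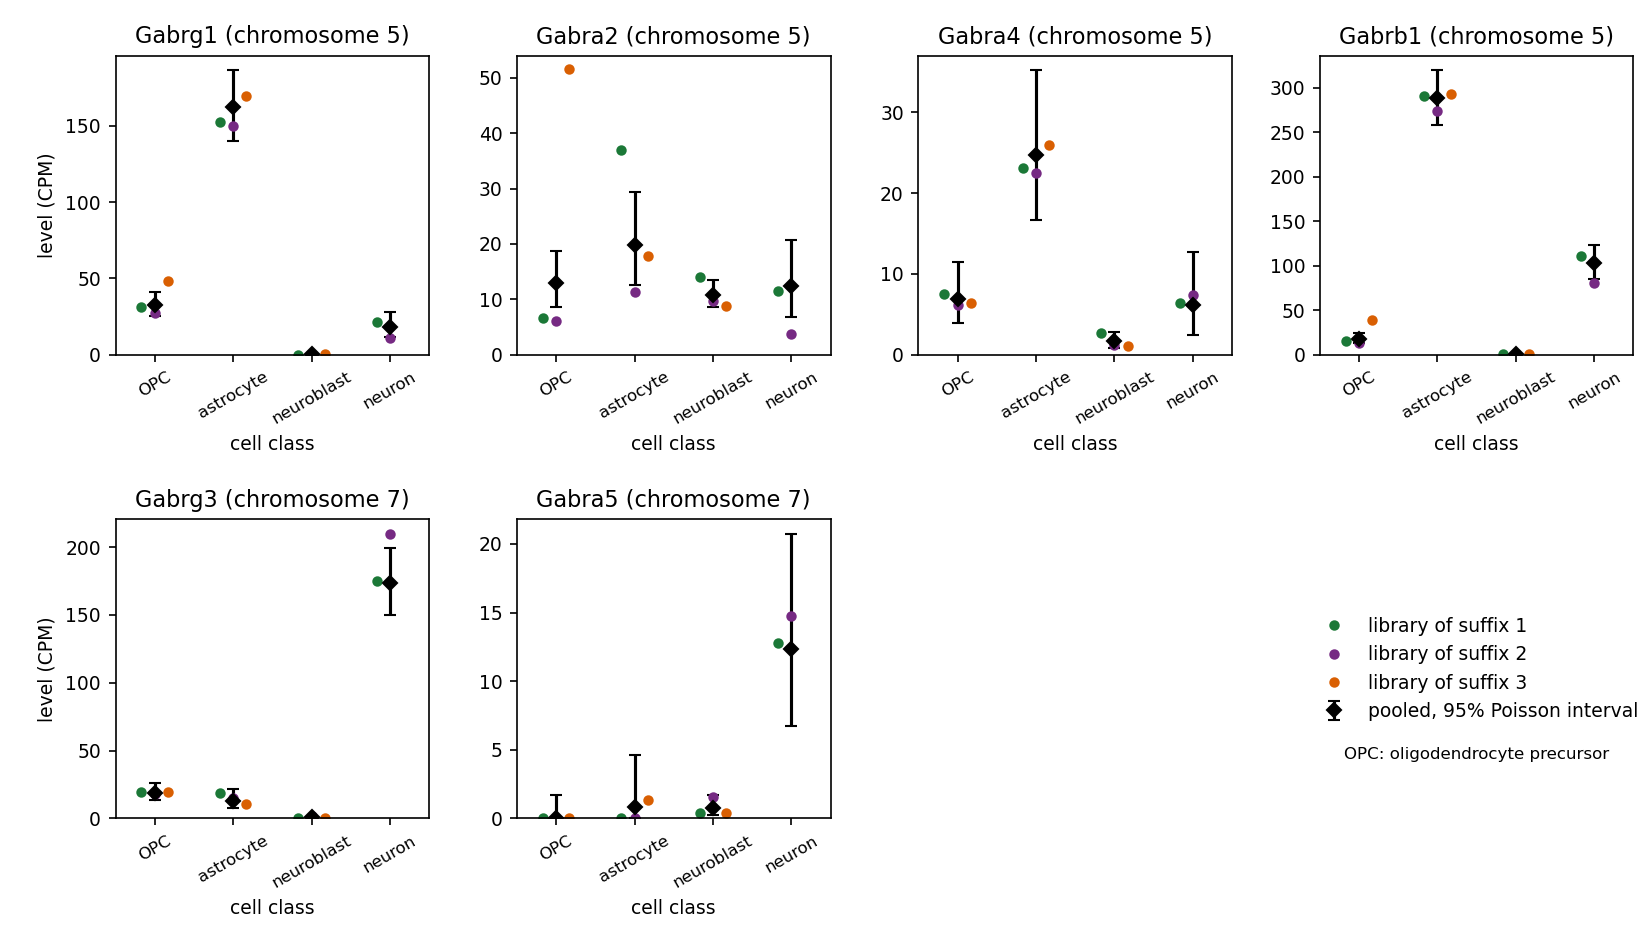
Levels in CPM (y axis) of 4 GABA-A genes of the chromosome 5 cluster (top) and 2 of the chromosome 7 cluster (bottom) in 4 cell classes (x axis), with black diamonds and 95% Poisson intervals for the pooled cells and colored points for each library. Pooled, the upper genes peak in astrocytes, at 19.8 to 288 CPM, and Gabrg3 of the lower row peaks in neurons at 173 CPM.

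Gabrg1 and Gabra2 are neighbours that shared astrocytes as their highest class in the pooled cells, at 162 and 19.8 CPM. For Gabra2 this did not hold in library 3. The 250 bases before each start are shown to set their letters beside those levels. They come from RefSeq (build GRCm38.p6), read 5′ to 3′ on the gene's strand, and overlap no other annotated gene. Capitals mark a GC box (GGGCGG) on either strand. A TATA box (TATAAA) and an NFI half-site (TTGGCA), likewise sought on both strands, had no match, and the 3 motifs cannot overlap each other.
Gabrg1, chr5:70842618-70842867, minus strand: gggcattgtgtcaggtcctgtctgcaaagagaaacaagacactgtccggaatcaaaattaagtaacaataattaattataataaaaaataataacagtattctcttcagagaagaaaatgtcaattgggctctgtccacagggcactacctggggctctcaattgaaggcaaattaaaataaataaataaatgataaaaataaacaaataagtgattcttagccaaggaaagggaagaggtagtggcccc
Gabra2, chr5:71095850-71096099, minus strand: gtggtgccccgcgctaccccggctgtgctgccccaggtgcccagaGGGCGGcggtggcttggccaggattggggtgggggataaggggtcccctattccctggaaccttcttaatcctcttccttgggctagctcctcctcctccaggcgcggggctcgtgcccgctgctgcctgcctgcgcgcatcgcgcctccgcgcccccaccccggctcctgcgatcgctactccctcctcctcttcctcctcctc
The GC box was found in 32.7% of 32851 RefSeq windows of the same length, the TATA box in 12.4% and the NFI half-site in 12.3%. Gabrg1 had no GC box and a GC content of 35.6%, while Gabra2 had 1 GC box and a GC content of 70.0%, so the 2 windows differed in base composition. The windows of Gabra4 and Gabrb1 lie inside each other's annotated gene and are not printed. Such matches describe letters and show no binding.

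Of the GABA-B genes, Gabbr1, which binds GABA, stood at 352 CPM in neurons, 228 in astrocytes, 197 in oligodendrocytes, 185 in precursors and 114 in neuroblasts, and was called in these 5 classes. In T cells it stood at 17.3 CPM, and 8.69% of them held a UMI. Gabbr1 was the one member with a level over 2 CPM there. Among T cells with no oligodendrocyte gate UMI it stood at 18.2 CPM, and the part of free RNA in this level was not tested. Committed precursors at 68.1 CPM and dividing progenitors at 63.1 CPM were just under 4 times the T cell level. With microglia as reference, Gabbr1 was called in committed precursors and not in dividing progenitors. Gabbr2, which couples to the G protein and carries Gabbr1 to the cell surface, stood at 88.1 CPM in astrocytes, 35.7 in precursors, 22.97 in neurons and 4.54 in committed precursors, and was called in these 4. Without library 1 it stood at 5.72 CPM in neurons and had no UMI in committed precursors.

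Most GABA-B UMIs were from Gabbr1 in neurons, oligodendrocytes, neuroblasts, astrocytes and precursors, and since capture is not calibrated between genes these shares give no ratio of subunits. In oligodendrocytes Gabbr1 stood at 189, 183 and 213 CPM in libraries 1, 2 and 3 while both GABA-B genes together stood at 190.1, 183 and 213 CPM. Of 12803 GABA-B UMIs in these cells, 12771 were Gabbr1. In neurons 398 of 424 GABA-B UMIs were Gabbr1, and in neuroblasts 893 of 918. In astrocytes Gabbr2 made up 107 of 384 UMIs and in precursors 77 of 475.

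Astrocyte levels differed between libraries for several genes. Gria1 stood at 194, 105 and 6.84 CPM in libraries 1, 2 and 3, and Gabbr2 at 148, 158 and 45.1 CPM, with library 3 lowest for both. Without library 3 the pooled levels were 145 and 153 CPM, and without library 1 Gria1 stood at 33.1 CPM. Grin2c and Grm3 were highest in library 3, as given above. Agt, which marks astrocytes of some brain regions, had a UMI in 50 of 60, 50 of 85 and 48 of 149 astrocytes, and 70 of the 75 Gria1 UMIs were in Agt cells. Within the Agt cells, a split made after the values were seen, Gria1 stood at 299, 211 and 16.5 CPM and Gabbr2 at 244, 233 and 82.3 CPM, so library 3 remained lowest. Grin2c within the Agt cells stood at 197, 135 and 329 CPM. Gabrb1 stood at 472, 309 and 292 CPM in the Agt cells and at 33.4, 239 and 293 CPM in the other astrocytes. Gabrg1 stood at 244, 211 and 247 CPM in the Agt cells and at 22.3, 89.8 and 131 CPM in the others. The others of library 1 were 10 cells, with 3 Gabrb1 and 2 Gabrg1 UMIs. Whether the group, the dissected region or the library goes with these differences cannot be told apart.

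**Figure D5:**
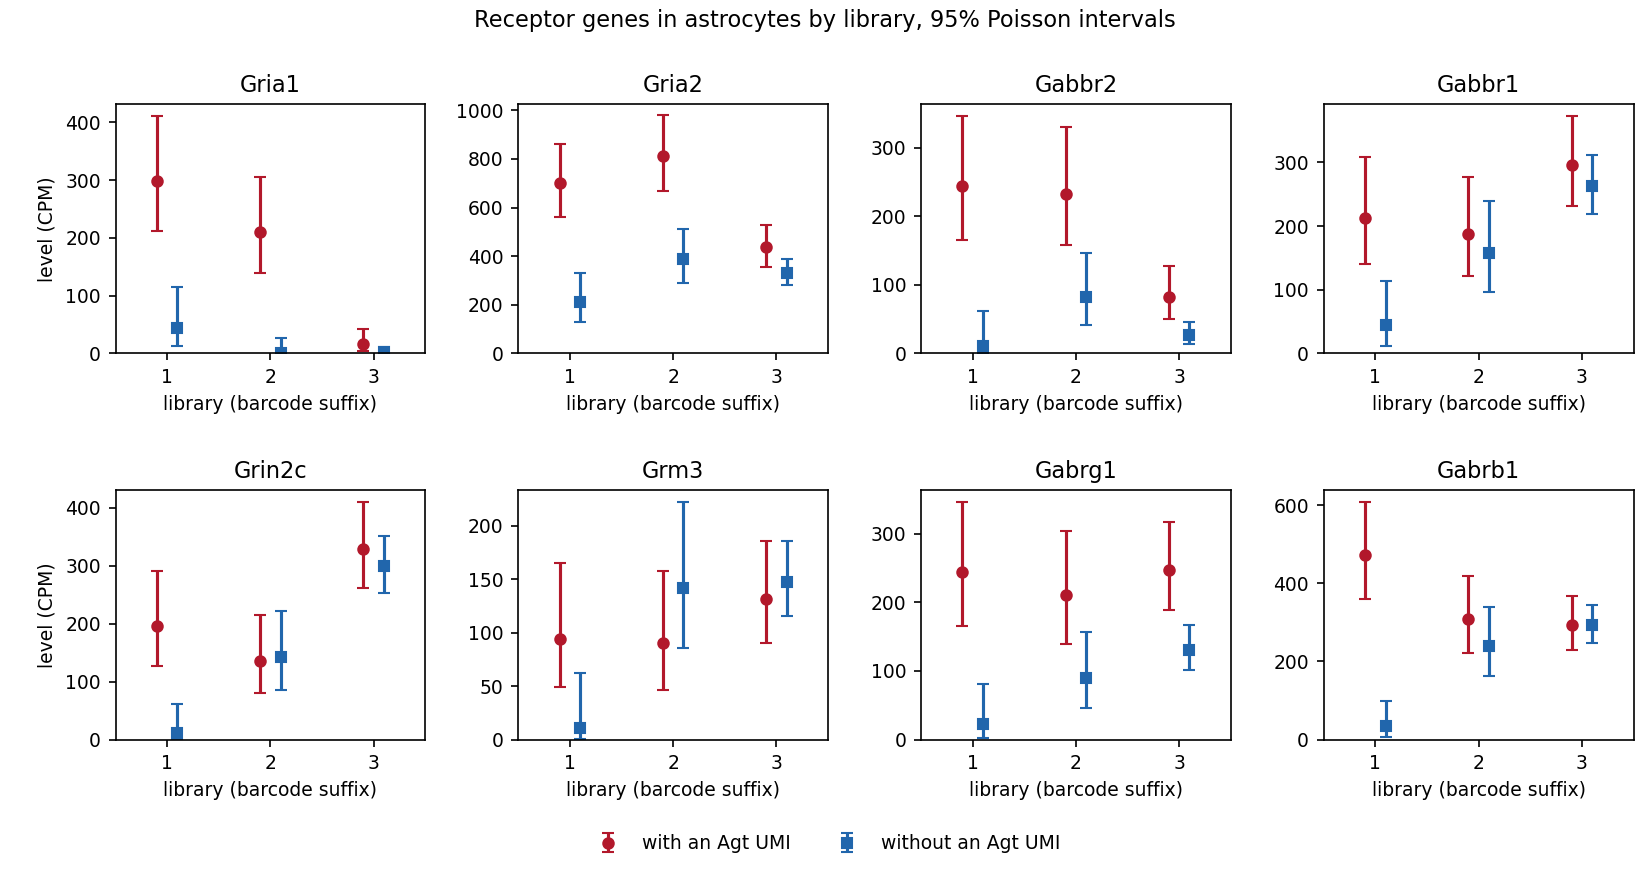
Levels in CPM (y axis) of 8 receptor genes in astrocytes with an Agt UMI (red circles) and without (blue squares) in the 3 libraries (x axis), with 95% Poisson intervals. Gria1 in Agt cells goes from 299 CPM in library 1 to 16.5 CPM in library 3, while Gabrg1 in Agt cells lies between 211 and 247 CPM in all 3. In cells without Agt, Gabrg1 goes from 22.3 CPM in library 1, on 2 UMIs, to 131 CPM in library 3.

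Dividing cells of the precursor class were 20 of 359, by the same kind of later split. They held 442 CPM of Gria2, 207 of Gria4, 95.04 of Gria3, 67.1 of Grin3a and 95.04 of Grm5, where the other 339 precursors held 514, 165, 214, 146 and 149 CPM. The dividing cells had no Grin1 and no Gria1 UMI. With 20 cells these differences are described and no more.

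Outside the neural classes the values were low. In microglia the receptor genes summed to 25.1 CPM, of which Gabbr1 was 16.8. Microglial Gabbr1 stood at 13.2, 10.99 and 47.8 CPM in the 3 libraries, and library 3 also had the most oligodendrocyte gate UMIs per microglial cell, 2.20 against 0.633 and 0.677. Among the 339 microglia of library 3 with no such UMI, Gabbr1 stood at 50.7 CPM (41.4 to 61.4). The part of oligodendrocyte RNA in these values was not tested. Endothelial cells, of which 1255 of 1279 were in library 3, held Gabbr1 at 34.4 CPM.

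Mural cells had Grm3 at 24.7 CPM (15.8 to 36.8) and Grm7 at 10.3 CPM as called genes. Of the 188 mural cells 163 were in library 3 and 13.8% also passed the oligodendrocyte gate, and both genes were called in oligodendrocytes. Of the endothelial cells 19.5% passed that gate, and they held Grm3 at 5.69 CPM and Grm7 at 2.80 CPM. The part of oligodendrocyte RNA in the mural values was not tested. In the 50 mural cells without an oligodendrocyte gate UMI, Grm3 stood at 17.8 CPM (4.86 to 45.7) on 4 UMIs and Grm7 had 1 UMI. Without library 3 neither was called. Choroid plexus cells had Gabrb1 at 10.95 CPM, Grik5 at 8.14, Gabra4 at 6.46 and Grm8 at 3.93 CPM as called genes, and 36.8% of them also passed the ependymal gate. Of these 4, Gabrb1 was called in the choroid plexus cells that passed no other gate.

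Genes whose products hold or aid these receptors were examined in 8 lists of 47 genes. Neurons had 32 of them called, where 20.7% of all tested genes were called, precursors 29 beside 20.6% and committed precursors 25 beside 17.6%. Neuroblasts had 20 beside 12.2%, dividing progenitors 19 beside 15.2%, astrocytes 13 beside 14.6%, oligodendrocytes 9 beside 11.7% and choroid plexus cells 8 beside 11.8%. The remaining classes had 1 to 4, and a share near that of all tested genes is no result about the lists. Of 15 AMPA auxiliary and scaffold genes, 12 were called in neurons, 10 in precursors, 8 each in committed precursors and neuroblasts, 7 in dividing progenitors, 5 in astrocytes and 2 in oligodendrocytes. Cacng4, a TARP that carries AMPA receptors to the membrane, stood at 589 CPM (557 to 622) in precursors, 136 in committed precursors and 102 in neuroblasts. Cnih2, another carrier, led with Olfm1 in neurons, at 202 and 253 CPM. Shisa9 stood at 52.7 CPM in astrocytes, where no Cacng or Cnih gene was called.

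Both kainate auxiliary genes were called in precursors, Neto1 at 55.2 CPM and Neto2 at 47.8 CPM, and Neto2 stood at 62.3 CPM in dividing progenitors, whose highest kainate gene was Grik2. Of 7 NMDA and metabotropic scaffold genes, Dlgap1 was called in 6 of the 7 neural classes, from 18.2 CPM in dividing progenitors to 234 CPM in precursors. Of 9 GABA-A scaffold and assembly genes, 8 were called in both precursor stages, 6 in neurons and in astrocytes, 5 in oligodendrocytes and dividing progenitors and 4 in neuroblasts. Gphn, which encodes the scaffold gephyrin, stood at 53.6 CPM in oligodendrocytes, which had no called GABA-A gene. Kctd8, a GABA-B auxiliary gene, stood at 56.6 CPM in neurons and 10.2 CPM in precursors.

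Grid1, a delta receptor gene related to the AMPA and kainate genes, stood at 40.8 CPM in precursors and 25.4 CPM in committed precursors. Adarb1, whose enzyme edits Gria2 RNA, was called in neurons at 30.9 CPM, in precursors at 16.2 CPM and in neuroblasts at 12.02 CPM, as well as in microglia, endothelial, mural and choroid plexus cells, and not in the other neural classes. Of the 7 transmitter synthesis and loading genes, 4 were called in neurons: Gad2, Gad1, Slc32a1 and the vesicular glutamate transporter gene Slc17a6. Gad2, Gad1 and Slc32a1 were called in neuroblasts at 348, 197 and 67.6 CPM and in dividing progenitors at 133, 49.8 and 26.2 CPM. Gad1 was also called in precursors, at 23.7 CPM, and no gene of this list was called in astrocytes or oligodendrocytes.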

How the data were processed

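Brain tissue of 3 labelled groups (1 sample each) was profiled by 10x 3' single-cell RNA sequencing. The deposited matrix holds UMI counts per gene and barcode that the authors made with Cell Ranger 3.1.0 and STAR on mm10, with reads down-sampled between libraries before aggregation; their later Seurat 3.1.1 filters were not applied to it. The libraries total 72498768, 105957232 and 69270514 UMIs. Down-sampling and free RNA limit what a low count shows.

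Barcodes were filtered on UMIs (1000) and mitochondrial share (30%). A class needed UMIs of 3 gate genes and a lead of 3 times over other classes that also passed, except between neighbouring classes. Between precursor and committed precursor, committed precursor and oligodendrocyte, or neuroblast and neuron, the larger sum of gate UMIs decided. The same held for microglia and macrophages/monocytes, and for T and NK cells. A dividing progenitor was a neuroblast with UMIs of 3 of 6 division genes. Of the remaining barcodes 2525 passed no gate and in 1539 no class led. A doublet caller marked 5.35%; these were kept, and left out as an alternative. Poisson and Clopper-Pearson intervals (95%) cover counting error only. Class levels sum raw UMIs over cells, since cells are not replicates. Gene clusters and positions are from GENCODE vM21. The gating and calling steps were run on cells simulated from the summed profiles of some of the gated classes. Neurons, committed precursors and dividing progenitors were not among them. Such a run checks the code and cannot show how well the gates sort real cells. Python 3.11.15, NumPy 2.4.6, SciPy 1.17.1 and pandas 2.3.3 were used.

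In each class up to 6 called members with the highest CPM were named, along with 12 fixed members wherever called; other members were named after their values were seen. The members, gates and lists were chosen with earlier results of these data known. The alternatives covered filters, gates, doublets, thinning, call thresholds, reference cells and leaving out each library. Results of a few named genes are not reported here.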

Additional observations from a re-analysis of the deposited data

How the results depend on the processing

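Of 262 counts of called receptor genes recomputed under 19 alternatives, 236 stayed within 1.5 times the value given and 26 moved. The 236 include counts that were 0 and stayed 0. These were in microglia, macrophages/monocytes, NK cells, neutrophils and endothelial cells, and they say little about stability. With cells thinned to 1000 UMIs, 8 genes were called in oligodendrocyte precursors, 4 in committed precursors, 2 in oligodendrocytes and 9 in astrocytes. Neuroblasts then had 3, dividing progenitors 2, neurons 6, and mural and choroid plexus cells 0. Of all genes, 1464, 1293, 909, 1149, 913, 952, 1331, 933 and 538 were called in these classes, in the order named. Fewer UMIs per cell lower the share of cells with a UMI by construction. With a UMI needed in 10% of the cells, the counts were 8 in committed precursors, 3 in oligodendrocytes, 9 in astrocytes and 4 in neuroblasts. Dividing progenitors then had 6, mural cells 1 and choroid plexus cells 2. Of all genes, 2582, 1706, 1734, 1615, 2312, 1551 and 1715 were called in these classes, in the order named. With 2% the counts were 1 in macrophages/monocytes and 2 in endothelial cells, beside 1597 and 2860 of all genes. With neutrophils as reference the counts were 8 in committed precursors, 6 in dividing progenitors, 1 in mural and 0 in choroid plexus cells. Of all genes, 4178, 4132, 3334 and 2236 were called there, in the same order. The floor of 3 UMIs is 2.96 CPM in neutrophils and 0.238 CPM in T cells, so the limit for rare genes was higher. The 4 called choroid plexus levels given above lay under 4 times the neutrophil floor, so their count of 0 was fixed by that floor. Choroid plexus cells had 0 under the upper limits on UMIs and genes and 1 among cells that passed no other gate. Of all genes, 1714 and 1823 were called there, in the same order. Leaving out each library gave 9 to 15 in committed precursors, lowest without library 1, and 1 to 2 in mural cells, lowest without library 3. Of all genes, 3659, 3136 and 3217 were called in committed precursors without libraries 1, 2 and 3, against 3286 with all libraries. In mural cells 2146, 2162 and 2012 of all genes were called without libraries 1, 2 and 3. Over the same alternatives precursors had 21 to 23, neurons 28 to 29, astrocytes 13 to 15 and neuroblasts 9 to 10. Dividing progenitors had 9 to 13, oligodendrocytes 6 to 7 and choroid plexus cells 3 to 4. All genes called were 3814 to 3889 in precursors, 3772 to 3930 in neurons, 2431 to 2819 in astrocytes and 2168 to 2361 in neuroblasts. They were 2737 to 2985 in dividing progenitors, 2101 to 2244 in oligodendrocytes and 2035 to 2313 in choroid plexus cells.

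Of 779 recomputed levels, 642 lay inside the interval of the value given and 32 moved over 1.5 times. In neurons Gria1 stood at 28.3 CPM and Gria4 at 16.97 CPM under the upper limits. Cells with no oligodendrocyte gate UMI, an alternative chosen after seeing the data, kept each of the 12 counts recomputed within 1.5 times. Counts that stayed 0 are among the 12. In mural cells the count stayed at 2, beside 2106 of all genes, but Grm7 was lost and Grik5 gained. The cause of these shifts was not tested. No paired analysis was possible because each group is 1 sample and the result comes from no test.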
